A study of Mus musculus with 6 samples.

Results

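The 39 genes described here code for the cytosolic aminoacyl-tRNA synthetases and for the amino acid and stress genes commonly linked to the transcription factor ATF4. They were found by symbol in a table of raw RNA-seq counts, where all 39 were present among 21240 genes, and all 39 were among the 11080 genes abundant enough to test. They comprise 20 synthetase genes and 19 genes of the ATF4 group, namely 2 factors, 4 stress targets, 5 transporters and 8 enzymes of amino acid synthesis. The cells were NMuMG, an epithelial line from the normal mouse mammary gland, and all of them had first been kept without serum and insulin for 6 h. They then received TGFβ1 at 5 ng/ml for 2 h, the same TGFβ1 for 12 h, or vehicle for 2 h. The vehicle was the BSA carrier of the ligand, whose buffer is given as HCl in the protocol and as Tris-HCl in the treatment label. Each of the 3 groups had 2 biological replicates, which gave 6 libraries of stranded total RNA. The sources used here do not say whether the replicates were separate cultures or days, so the p-values measure only the spread between these libraries. Since vehicle was taken at 2 h only, the effect of 12 h of TGFβ cannot be told apart from that of a longer time without serum.

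Aminoacyl-tRNA synthetases join each amino acid to its tRNA and so feed every round of protein synthesis. When amino acids run short or misfolded protein accumulates in the endoplasmic reticulum, kinases phosphorylate the initiation factor eIF2, most translation slows and the Atf4 mRNA is translated more, a program called the integrated stress response. ATF4 then pairs with C/EBP factors and activates genes for amino acid synthesis, amino acid uptake and tRNA charging, along with stress genes such as Ddit3 and Trib3. Because ATF4 is controlled largely at translation, its mRNA level need not follow its protein.

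Total counts per library ranged from 14705886 to 23786993, and the 39 genes held 0.548% to 0.648% of them. The lowest count of any of the 39 in any library was 61. Levels are given as CPM, counts scaled to a common library size, with edgeR's TMM factors, which were between 0.961 and 1.07. The TGFβ response genes Smad7 and Skil rose at both times, Smad7 with a log2 fold change (log2FC) of 2.07 at 2 h and 2.65 at 12 h. Of 6 markers of luminal or simple epithelial cells, 5 were abundant enough to test, and the list had a summed level of 4965 to 5786 CPM in vehicle, 6447 to 6481 CPM at 2 h and 10332 to 10379 CPM at 12 h. Its members differed at 12 h, with log2FC of 1.63 for Krt8, 1.53 for Krt18, 1.60 for Krt7, -0.07 for Cdh1 and -1.95 for Krt19. Epcam, a defining epithelial marker, had only 2 to 16 counts per library. None of the leukocyte, endothelial or adipocyte markers was abundant enough to test, and the adipocyte markers had 0 or 1 count. The endothelial markers summed to 0.177 to 0.255 CPM in vehicle, 0.353 to 0.354 CPM at 2 h and 1.74 to 1.95 CPM at 12 h, where Cdh5 had 39 and 36 counts and Pecam1, Kdr and Tek 0 to 2. The part of these marker shifts in the results was not tested.

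After 2 h of TGFβ 2 of the 39 genes were called in the fit without a replicate block, Trib3 higher and Sesn2 lower. A gene is said to have risen or fallen here when its p-value, from edgeR's quasi-likelihood test adjusted by the Benjamini-Hochberg method over all genes tested, was under 0.05. Across all genes, 9.91% were called higher and 5.25% lower at 2 h, so 1 of 39 in each direction was below that background. With the replicate number as a block, which the labels do not say pairs the libraries, 5 of the 39 were called higher and 2 lower at 2 h. Cars, Phgdh, Slc7a5, Chac1 and Ddit3 were the additions. Over all 11080 genes tested, that fit called 1813 higher and 1409 lower. With library totals in place of TMM factors, the share of higher genes among all called ones went from 65.4% to 46.7% at 2 h and from 50.3% to 37.5% at 12 h. After 12 h, 6 of the 39 genes rose (Trib3, Yars, Aldh18a1, Tars, Rars and Slc3a2) and 7 fell (Psat1, Ddit3, Slc1a5, Slc7a5, Atf5, Phgdh and Sesn2), against 21.8% of all genes higher and 21.5% lower. In bulk RNA of this kind, fewer cells that express a gene and less of its RNA per cell cannot be told apart.

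Between 2 h and 12 h of TGFβ, 4 of the 39 genes rose (Aldh18a1, Yars, Sesn2 and Tars) and 6 fell (Psat1, Slc7a5, Phgdh, Slc1a5, Ddit3 and Atf5), where 15.2% of all genes were called higher and 18.9% lower. At 12 h against vehicle, 21.8% of all genes were called higher and 21.5% lower. In that contrast 3 of the 20 synthetases were higher and 0 lower, and of the 19 genes of the ATF4 group 3 were higher and 7 lower. A difference between these groups was not tested. The comparisons of 2 h and of 12 h share the vehicle libraries, so their values are given side by side and the contrast of 12 h against 2 h is the test of their difference.

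**Figure D1:**
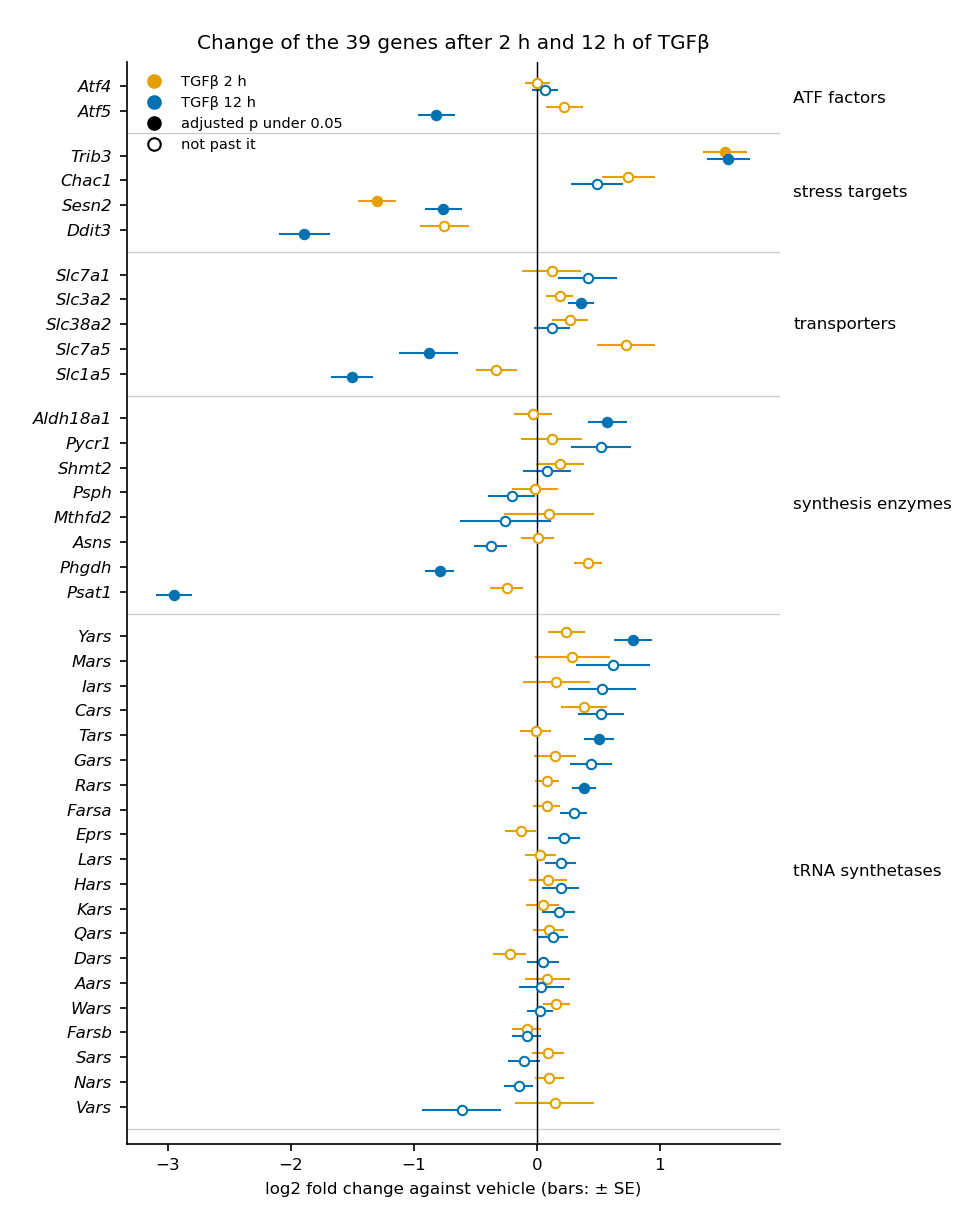
Log2 fold change against vehicle (x axis) of each of the 39 genes after 2 h and 12 h of TGFβ, with bars of ± 1 SE from the edgeR fit and filled points for an adjusted p under 0.05. Psat1 lies farthest to the left at -2.95 and Trib3 farthest to the right at 1.56, both at 12 h, while the synthetases lie between -0.61 and 0.78.

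ATF4 with a C/EBP partner binds the C/EBP-ATF response element, searched here as TGATGNAA on both strands, where it reads TTNCATCA on the opposite one. RefSeq promoter windows of 300 bases, from 250 before to 50 after a start, were on hand for 30 of the 39 genes (GRCm38.p6). The motif was in 9 of their 33 windows (27.3%), in 3.97% of all 32851 windows, and in 2.12% of the windows of genes tested. The 9 genes were Trib3, Yars, Chac1, Iars, Pycr1, Tars, Gars, Asns and Aars. The stretches of 30 bases around the motif, in capitals, are shown for the 8 of them that had the largest changes, because they are the sequence feature these genes share. Each is read 5′ to 3′ on the strand of the gene.
Trib3: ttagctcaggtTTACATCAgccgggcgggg
Yars: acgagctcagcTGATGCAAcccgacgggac
Chac1: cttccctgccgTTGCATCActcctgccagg
Iars: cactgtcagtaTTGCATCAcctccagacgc
Pycr1: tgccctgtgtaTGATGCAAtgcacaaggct
Tars: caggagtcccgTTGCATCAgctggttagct
Gars: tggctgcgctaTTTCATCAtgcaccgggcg
Asns: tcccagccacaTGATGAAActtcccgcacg

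On GRCm38.p6 the stretches lie at chr2:152344028-152344057 on the minus strand for Trib3, chr4:129189895-129189924 on the plus strand for Yars and chr2:119351038-119351067 on the plus strand for Chac1. Those of Iars and Pycr1 lie at chr13:49682126-49682155, plus strand, and chr11:120643833-120643862, minus strand. The others lie at chr15:11399655-11399684, minus strand, for Tars, at chr6:55037960-55037989, plus strand, for Gars and at chr6:7693214-7693243, minus strand, for Asns. Counting the start base as 1, the motif began at 4 in Yars, 8 in Iars and 15 in Trib3, and at -15 in Tars, -23 in Asns, -30 in Gars, -103 in Pycr1 and -193 in Chac1. Of the 6 genes that rose at 12 h, 5 had a window and 3 of these held the motif (Trib3, Yars and Tars). Of the 7 that fell, 5 had a window and 0 held it. The motif was also in Chac1, Iars, Pycr1, Gars, Asns and Aars, which edgeR did not call at 12 h against vehicle. Their log2FC in that contrast ran from -0.37 for Asns to 0.53 for Iars. A link between motif and direction was not tested. A match is a description of letters and not a measured binding site, and no match says only that these letters are absent from this window. No window was on hand for Cars, Hars, Lars, Nars, Rars, Slc1a5, Slc7a5, Vars and Wars.

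The factors were taken first. Atf4 (chr15:80085614-80087970, NCBIM37, the same build as mm9) was at 335 and 313 CPM in vehicle, 325 and 326 CPM at 2 h and 319 and 359 CPM at 12 h. The 3 groups overlapped. Its log2FC was 0.01 ± 0.105 (SE) at 2 h and 0.06 ± 0.105 at 12 h (edgeR adjusted p = 0.979 and 0.652), values whose sign changed under several alternatives. Atf5 (chr7:52067627-52072028), a related factor that is also translated more when eIF2 is phosphorylated, was at 15.1 and 17.3 CPM in vehicle, 18.02 and 19.9 CPM at 2 h and 9.24 and 9.20 CPM at 12 h. Both 12 h libraries lay below all others. Atf5 fell by 0.82 on the log2 scale at 12 h (SE 0.152, edgeR adjusted p = 0.00563), or 1.76-fold lower, and had a log2FC of -1.04 from 2 h to 12 h (adjusted p = 0.00325).

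The 4 stress targets went in different directions. Trib3 (chr2:152163158-152169768), a pseudokinase that binds ATF4 and AKT, was at 8.66 and 10.5 CPM in vehicle, 28.4 and 26.7 CPM at 2 h and 31.5 and 24.7 CPM at 12 h. Every TGFβ library lay above both vehicle libraries, and the 2 times overlapped. It was 2.89-fold higher at 2 h (log2FC 1.53, SE 0.178, edgeR adjusted p = 0.00286) and 2.94-fold higher at 12 h (log2FC 1.56, SE 0.178, adjusted p = 0.000745), and the 12 h and 2 h values differed by a log2FC of 0.03 (adjusted p = 0.917). Both calls held with each library left out in turn and under each other setting tried.

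Sesn2 (chr4:132047947-132066416), which codes for the leucine-binding inhibitor of mTORC1 sestrin 2, was at 43.8 and 51.1 CPM in vehicle, 17.1 and 21.5 CPM at 2 h and 27.5 and 28.5 CPM at 12 h. The 3 groups did not overlap, with 2 h lowest. It fell by 1.30 on the log2 scale at 2 h (SE 0.155, edgeR adjusted p = 0.00308), or 2.46-fold lower, and had a log2FC of -0.76 at 12 h (SE 0.152, adjusted p = 0.00752). The rise of 0.54 from 2 h to 12 h (SE 0.154, adjusted p = 0.0363) lost its call without any 1 library except replicate 2 of 2 h, with adjusted p-values of up to 0.158. Without replicate 1 of 12 h, Sesn2 at 12 h against vehicle had a log2FC of -0.75 with an adjusted p of 0.0577.

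Ddit3 (chr10:126727830-126733344), which codes for the stress factor CHOP, was at 28.4 and 30.8 CPM in vehicle, 14.2 and 20.9 CPM at 2 h and 8.06 and 7.91 CPM at 12 h. The level was lower at each later time with no overlap between groups. It fell by 1.89 on the log2 scale at 12 h (SE 0.207, edgeR adjusted p = 0.000634), or 3.70-fold lower. At 2 h its log2FC of -0.75 (SE 0.199, adjusted p = 0.0502) missed the threshold, and it passed with limma-voom (adjusted p = 0.0399), DESeq2 (0.0128) or without replicate 2 of 2 h (0.00959). From 2 h to 12 h it fell by 1.14 (adjusted p = 0.0071), a call lost without replicate 1 (0.0595) or replicate 2 (0.06) of 12 h. The gene overlaps Mars at their 3′ ends on opposite strands, and the counting used strand. Chac1, a glutathione-degrading enzyme, had a log2FC of 0.74 (SE 0.212, adjusted p = 0.0627) at 2 h and 0.49 (adjusted p = 0.108) at 12 h. Without replicate 1 of 2 h, the Chac1 value at 2 h was 0.95 with an adjusted p of 0.0216, and with DESeq2 it passed as well (adjusted p = 0.0476).

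**Figure D2:**
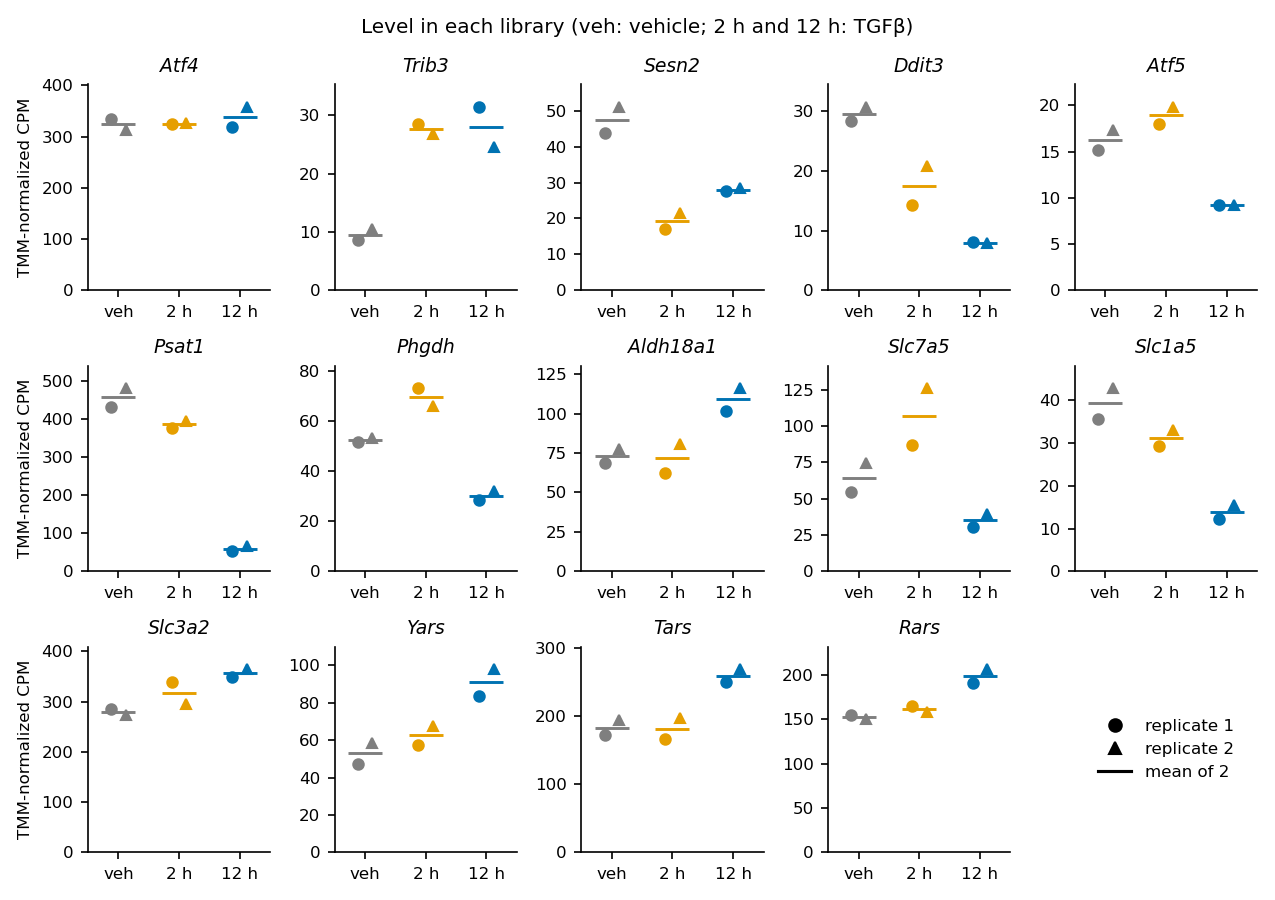
TMM-normalized CPM (y axis, starting at 0) in each of the 6 libraries for Atf4 and the 13 genes called in any contrast, with circles for replicate 1, triangles for replicate 2 and bars for the mean of 2. Psat1, Ddit3, Slc1a5, Atf5, Phgdh and Slc7a5 are lowest at 12 h, Trib3 is higher at both times, and Atf4 stays between 313 and 359 CPM.

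Among the 8 synthesis enzymes 1 rose and 2 fell at 12 h, where 21.8% of all genes rose and 21.5% fell, and at 2 h edgeR and limma-voom called 0 while DESeq2 called 1 (Phgdh, also the one with an unadjusted p under 0.05). The largest change of all 39 genes was in Psat1 (chr19:15979168-16021827), the phosphoserine aminotransferase of serine synthesis. It was at 433 and 483 CPM in vehicle, 377 and 394 CPM at 2 h and 52.9 and 65.7 CPM at 12 h. The 12 h libraries lay far below all others. Psat1 fell by 2.95 on the log2 scale at 12 h (SE 0.142, edgeR adjusted p = 4.68e-05), or 7.72-fold lower, and had a log2FC of -2.70 from 2 h to 12 h (adjusted p = 0.000162), while the value at 2 h was -0.25 (adjusted p = 0.269). Under the alternatives, leave-outs included, the log2FC at 12 h stayed between -3.12 and -2.81.

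Phgdh (chr3:98117093-98143913), the dehydrogenase that opens the same pathway, was at 51.5 and 53.3 CPM in vehicle, 73.4 and 66.2 CPM at 2 h and 28.4 and 32.2 CPM at 12 h. Its groups did not overlap, with 2 h highest and 12 h lowest. It fell by 0.79 on the log2 scale at 12 h (SE 0.116, edgeR adjusted p = 0.00212), or 1.73-fold lower, and had a log2FC of -1.20 from 2 h to 12 h (SE 0.116, adjusted p = 0.000799). At 2 h the value was 0.41 (SE 0.114, adjusted p = 0.0573), and it passed the threshold with DESeq2. Psph, the phosphatase of the last step, had a log2FC of -0.21 at 12 h (SE 0.189, adjusted p = 0.419) and its groups overlapped.

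Aldh18a1 (chr19:40624747-40662953), the enzyme that starts proline synthesis from glutamate, was the synthesis gene that rose. It was at 68.8 and 77.6 CPM in vehicle, 62.3 and 81.0 CPM at 2 h and 102 and 116 CPM at 12 h. Both 12 h libraries lay above all others. It was 1.49-fold higher at 12 h (log2FC 0.57, SE 0.155, edgeR adjusted p = 0.0239) and 1.52-fold higher than at 2 h (adjusted p = 0.0246). Leaving out any 1 library of the groups compared lost the call against vehicle (adjusted p = 0.0567 to 0.146), and leaving out replicate 1 of 2 h or either 12 h library lost that against 2 h (0.0556 to 0.149). With library totals, its value against vehicle was 0.44 (adjusted p = 0.0717).

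The other synthesis enzymes were not called in any contrast. Pycr1, which completes proline synthesis in mitochondria, had a log2FC of 0.52 at 12 h (SE 0.245, edgeR adjusted p = 0.132) at a level of only 3.89 to 7.29 CPM over all libraries. Asns, asparagine synthetase, had values of 0.01 at 2 h and -0.37 at 12 h (SE 0.134, adjusted p = 0.0623), with both 12 h libraries below both vehicle libraries. Asns passed with DESeq2 (adjusted p = 0.0357), library totals (0.0275), only the 2 groups compared (0.0323) or without either 2 h library (0.0347 and 0.0402), and its value was -0.24 without replicate 1 of 12 h. The mitochondrial folate enzymes Shmt2 and Mthfd2 had log2FC of 0.08 and -0.26 at 12 h (adjusted p = 0.758 and 0.608), and in both genes the groups overlapped. The SE of Mthfd2 was 0.367, the largest of these enzymes.

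At 12 h 1 of the 5 transporters rose and 2 fell, where 21.8% of all genes rose and 21.5% fell, and at 2 h edgeR and limma-voom called 0 while DESeq2 called 1 (Slc7a5, also the one with an unadjusted p under 0.05). Slc1a5 (chr7:17366695-17383623), the glutamine and neutral amino acid exchanger ASCT2, was at 35.7 and 43.0 CPM in vehicle, 29.4 and 33.2 CPM at 2 h and 12.2 and 15.6 CPM at 12 h. Its levels were lowest at 12 h, with no overlap between groups. It was 2.83-fold lower at 12 h (log2FC -1.502, SE 0.173, edgeR adjusted p = 0.000776) and 2.25-fold lower than at 2 h (log2FC -1.17, adjusted p = 0.00334), and the value at 2 h was -0.33 (adjusted p = 0.246).

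Slc7a5 (chr8:124405052-124431594) and Slc3a2 (chr19:8781372-8797859) code for LAT1 and for 4F2hc, the light and heavy chains of 1 transporter of large neutral amino acids. Slc7a5 was at 54.4 and 74.8 CPM in vehicle, 86.9 and 126 CPM at 2 h and 30.8 and 39.5 CPM at 12 h. Its groups did not overlap, with 2 h highest and 12 h lowest. It fell by 0.88 on the log2 scale at 12 h (SE 0.241, edgeR adjusted p = 0.0248), or 1.84-fold lower, was 3.04-fold lower than at 2 h (log2FC -1.60, SE 0.242, adjusted p = 0.00368), and the value at 2 h was 0.72 (SE 0.237, adjusted p = 0.0937). Without replicate 1 of 2 h, the Slc7a5 value at 2 h was called, with an adjusted p of 0.0216. The 12 h call was lost without replicate 2 of vehicle (log2FC -0.63, adjusted p = 0.123), replicate 1 of 12 h (-0.72, 0.15) or replicate 2 of 12 h (-1.08, 0.0627).

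Slc3a2 was at 284 and 273 CPM in vehicle, 339 and 295 CPM at 2 h and 348 and 366 CPM at 12 h. Both 12 h libraries lay above all others. It was 1.28-fold higher at 12 h (log2FC 0.36, SE 0.109, edgeR adjusted p = 0.0366), so that the chains of this transporter moved in opposite directions. The Slc3a2 call was lost without any 1 of the vehicle or 12 h libraries (adjusted p = 0.117 to 0.197) and with library totals (log2FC 0.23, adjusted p = 0.113). Slc7a1, the cationic amino acid transporter, had a log2FC of 0.41 at 12 h (SE 0.237, adjusted p = 0.206), and without replicate 2 of vehicle Slc7a1 passed the threshold (0.77, adjusted p = 0.0445), while without replicate 1 of vehicle its value was 0.12. Slc38a2, the sodium-coupled neutral amino acid transporter SNAT2, had 0.27 at 2 h and 0.12 at 12 h (adjusted p = 0.286 and 0.545).

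The 20 synthetase genes cover every proteinogenic amino acid, since Eprs codes for an enzyme that charges both glutamate and proline, and Farsa and Farsb for the subunits of the phenylalanine enzyme. At 2 h, 0 were called in either direction by edgeR, and 0 had an unadjusted p under 0.05, while limma-voom and DESeq2 also called 0. Their median log2FC was 0.09 at 2 h and 0.19 at 12 h, against -0.01 and 0.02 over all genes tested. At each time 16 of 20 had a positive log2FC, beside 5419 of the 11080 genes tested at 2 h and 5671 at 12 h. These medians and counts depended on the scaling and on single libraries. With library totals the 2 h median was -0.02 with 7 of 20 positive, and the 12 h median 0.06 with 12 positive. The 2 h median was -0.02 with 6 positive without replicate 1 of vehicle, and -0.07 with 7 positive without replicate 2 of 2 h. The 12 h median was 0.12 without replicate 1 of vehicle and 0.08 without replicate 2 of 12 h.

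At 12 h, 3 of the 20 synthetase genes rose, a smaller share than the 21.8% of all genes that rose. With the replicate block 8 were called higher and 1 lower, beside 3075 higher and 3052 lower of all 11080 genes tested. Yars (chr4:128867004-128896851), for tyrosine, was at 47.5 and 58.5 CPM in vehicle, 57.5 and 67.7 CPM at 2 h and 83.8 and 98.3 CPM at 12 h. Both 12 h libraries lay above all others, and vehicle and 2 h overlapped. It was 1.72-fold higher at 12 h (log2FC 0.78, SE 0.153, edgeR adjusted p = 0.00689), a call that was lost without replicate 2 of 12 h (log2FC 0.65, adjusted p = 0.0592). Against 2 h it was 1.45-fold higher (log2FC 0.54, adjusted p = 0.0342), a call lost without replicate 1 of 2 h or either 12 h library (adjusted p = 0.0789 to 0.193).

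Tars (chr15:11313418-11329413), for threonine, was at 172 and 194 CPM in vehicle, 167 and 197 CPM at 2 h and 249.7 and 270.2 CPM at 12 h. Again both 12 h libraries lay above all others. It was 1.42-fold higher at 12 h (log2FC 0.51, SE 0.125, edgeR adjusted p = 0.0173) and 1.43-fold higher than at 2 h (adjusted p = 0.0205). Without replicate 1 of vehicle or either 12 h library, its value against vehicle was 0.42 to 0.55 with an adjusted p of 0.0638 to 0.113. The call against 2 h was lost without replicate 1 of 2 h (0.0532) or either 12 h library (0.0798 and 0.128). With library totals Tars was not called against vehicle (log2FC 0.37, adjusted p = 0.0636).

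Rars (chr11:35621883-35648008), for arginine, was at 155 and 150.3 CPM in vehicle, 165 and 158 CPM at 2 h and 191 and 207 CPM at 12 h. The groups did not overlap, with 12 h highest. It was 1.30-fold higher at 12 h (log2FC 0.38, SE 0.0976, edgeR adjusted p = 0.0194), and 12 h against 2 h missed the threshold (log2FC 0.30, adjusted p = 0.0544). Leaving out any 1 of the vehicle or 12 h libraries lost the call (log2FC 0.31 to 0.43, adjusted p = 0.0651 to 0.139), as did library totals (0.25, adjusted p = 0.0724). The contrast of 12 h against 2 h passed for Rars with DESeq2 and with the replicate block. RARS is a subunit of the cytosolic multisynthetase complex, whereas the tyrosine and threonine enzymes are not.

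The other 17 synthetases were not called in any contrast by edgeR with all 6 libraries and no replicate block. At 12 h against vehicle, 0 fell by edgeR, limma-voom or DESeq2. For 12 h against 2 h, DESeq2 called Eprs higher and Vars lower. In that contrast the replicate block called Dars, Eprs and Gars higher and Nars and Vars lower. An unadjusted p under 0.05 was found in 6 of the 20 at 12 h, all with a positive log2FC, and in 5719 of the 11080 genes tested, a larger share. Their log2FC at 12 h ran from -0.61 for Vars, for valine, to 0.62 for Mars, for methionine, and both had large errors (SE 0.321 and 0.304, edgeR adjusted p = 0.17 and 0.147). With libraries left out in turn Vars went from -0.95 to -0.18 and Mars from 0.31 to 1.00, both ends being without replicate 1 or replicate 2 of vehicle. Without either 2 h library Mars (adjusted p = 0.0434 and 0.0385), Iars (0.023 and 0.0197) and Gars, for glycine (0.0352 and 0.0308), passed the threshold, as did Farsa without replicate 2 of 2 h (0.0415). With only the 2 groups compared these 4 passed as higher and Vars as lower (0.0466), and Gars passed with DESeq2 (0.0462). Cars, for cysteine, had a value of 0.52 at 12 h (SE 0.187, adjusted p = 0.0624), with both 12 h libraries above both vehicle libraries. Cars passed the threshold with DESeq2 (adjusted p = 0.0284), no filter (0.0445), only the 2 groups compared (0.0244) or without either 2 h library (0.0258 and 0.0228), and its value was 0.35 without replicate 1 of vehicle. Sars, for serine, had -0.10 (adjusted p = 0.549), and the phenylalanine subunits Farsa and Farsb had 0.30 and -0.08 (adjusted p = 0.0668 and 0.616).

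The synthetases varied together between replicates of a group. Summed over the 20 genes, the level was 3115 and 3665 CPM in the vehicle replicates, 3242 and 3932 CPM at 2 h and 3615 and 4027 CPM at 12 h. Replicate 2 was above replicate 1 in 17 of 20 genes in vehicle, 18 at 2 h and 18 at 12 h, against 50.3%, 50.8% and 57.2% of all genes tested. In 16 of 20 synthetases (80%) this held in all 3 groups, compared with 26.1% of all genes and 42.1% of the ATF4 group. The median difference was 0.22, 0.24 and 0.14 on the log2 scale in the order vehicle, 2 h and 12 h, beside synthetase medians of the TGFβ effect of 0.09 and 0.19.

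The widest gaps, chosen here after the values had been seen, were in Vars, Mars and Iars, for valine, methionine and isoleucine. In Vars the replicates were at 150.3 and 256 CPM in vehicle, 163 and 287 CPM at 2 h, and 129.5 and 137 CPM at 12 h. Replicate 2 was thus 1.71-fold above replicate 1 in vehicle, 1.76-fold at 2 h and 1.05-fold at 12 h. Mars had ratios of 1.61, 1.74 and 1.08 in the same order, and Iars 1.34, 1.80 and 0.978. Dars, for aspartate, went the other way in every group, with ratios of 0.904, 0.808 and 0.949. The cause of these gaps was not tested.

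**Figure D3:**
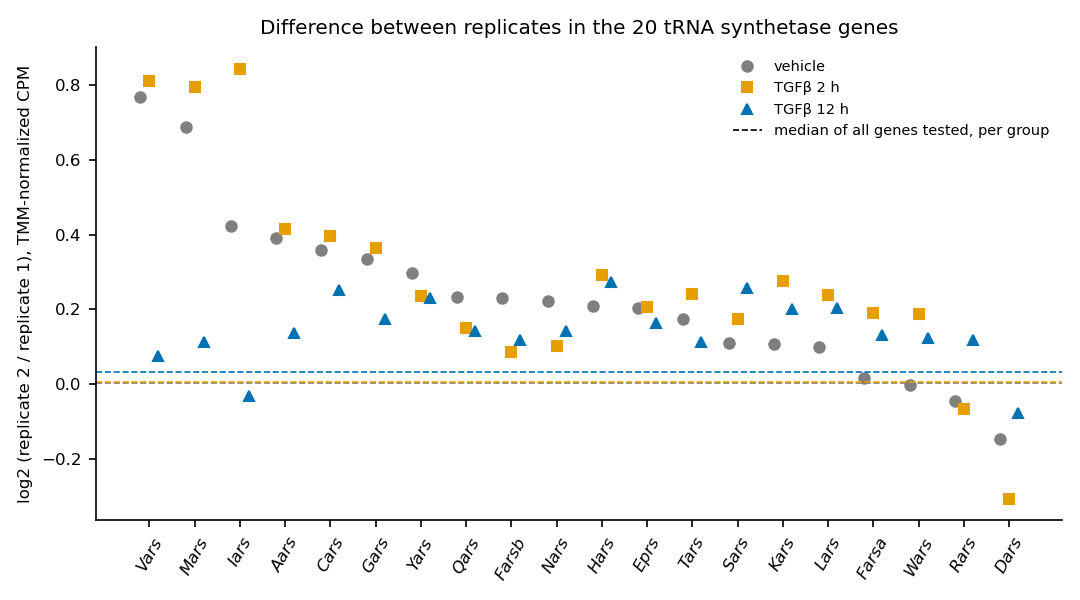
Log2 ratio of replicate 2 to replicate 1 (y axis, TMM-normalized CPM with 0.25 added) for each of the 20 synthetase genes in vehicle, at 2 h and at 12 h, with dashed lines for the median of all genes tested in each group. In every group nearly all points lie above the line of that group. Vars, Mars and Iars lead in vehicle and at 2 h, and the 12 h points stay between -0.08 and 0.27.

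Levels of different genes were compared per kb of exon, from the GENCODE annotation of NCBIM37. Each length was the union of all annotated exons of a gene, 5943 bases for Yars and 9282 for Aars. The counts were made over UCSC KnownGene exons, so ranks between genes depend on the lengths used. In vehicle the most abundant were Atf4 with 188 ± 8.87 CPM per kb (SD, n = 2), Slc38a2 with 151 ± 14.9, Sars with 112 ± 6.04 and Psat1 with 108 ± 8.33, where Sars and Psat1 differed by less than their spread. The least abundant were Pycr1 with 1.23 ± 0.338 CPM per kb, Trib3 with 4.497 ± 0.598 and Chac1 with 4.63 ± 0.550, the last of which did not differ from Trib3 beyond the spread. At 12 h Psat1 was at 13.9 ± 2.12 CPM per kb and had gone from rank 4 to rank 28 of the 39, while Trib3 had gone from rank 38 to rank 29 with 13.2 ± 2.28. Atf4 kept rank 1 in all 3 groups. Among the synthetases, Yars had the lowest level per kb in every group on these lengths, with 8.92 ± 1.31 in vehicle and 15.3 ± 1.73 at 12 h.

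**Figure D4:**
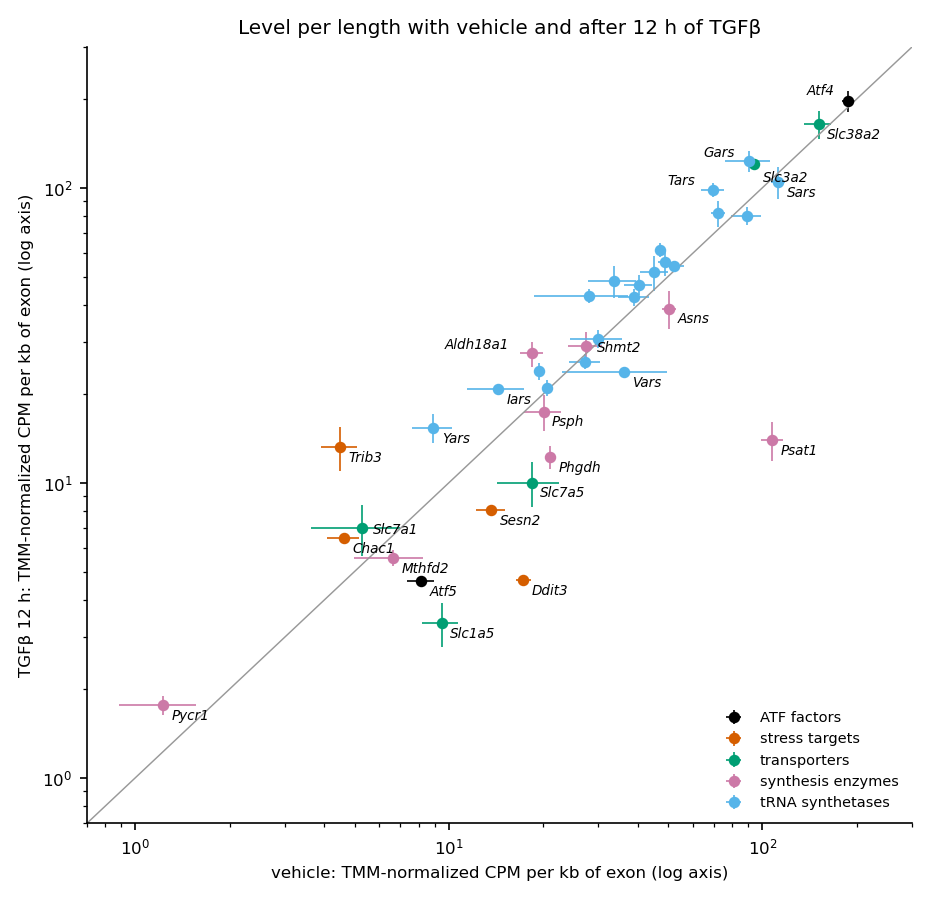
Mean level of each of the 39 genes in CPM per kb of exon with vehicle (x axis) and after 12 h of TGFβ (y axis), both on log axes, with bars of ± 1 SD over 2 libraries and a line of equal levels. Psat1 lies farthest below the line, at 108 with vehicle and 13.9 at 12 h, and Trib3 lies farthest above it.

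Related genes outside the 39 were read by lists, whose counts stand beside 9.91% of all genes higher and 5.25% lower at 2 h, 21.8% and 21.5% at 12 h, and 15.2% and 18.9% for 12 h against 2 h. The members named are those with the largest changes. Of 17 mitochondrial tRNA synthetases, 3 rose and 2 fell at 12 h, and at 2 h the only call was 1 gene that fell. Ears2, for glutamate, had a log2FC of 0.86 at 12 h (edgeR adjusted p = 0.0171), and Cars2, for cysteine, had -0.73 (adjusted p = 0.0211). The 3 scaffolds of the multisynthetase complex gave 0 calls at 2 h and 2 higher at 12 h, Eef1e1 with 1.16 (adjusted p = 0.000449) and Aimp2 with 0.73 (adjusted p = 0.0145).

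Of 16 genes for the eIF2 kinases with their regulators Gcn1l1 and Impact, the phosphatases, eIF2 subunits and exchange factor, 3 rose and 0 fell at 2 h, and 7 rose and 1 fell at 12 h. Gcn1l1 was among those that rose at both times and Impact was the 1 that fell, both named after their values were seen. Eif2ak3, the endoplasmic reticulum kinase PERK, had a log2FC of 0.78 at 2 h and 0.57 at 12 h (edgeR adjusted p = 0.00586 and 0.00654). Eif2b2 and Eif2b3, subunits of the exchange factor that is inhibited by phosphorylated eIF2, had 0.88 and 0.78 at 12 h (adjusted p = 0.00205 and 0.00439). Of 13 chaperones and genes of the IRE1 and ATF6 branches, 1 rose and 1 fell at 2 h, and 5 rose and 0 fell at 12 h. Among them Hspa5, the chaperone BiP, had 1.20 at 12 h (SE 0.309, edgeR adjusted p = 0.0198), with vehicle replicates at 387 and 635 CPM. Pdia4, a disulfide isomerase, had 0.86 at 12 h (adjusted p = 0.00329). Xbp1, the IRE1-spliced factor, had 0.71 at 2 h and 0.81 at 12 h (adjusted p = 0.0133 and 0.00264).

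Of 27 other genes linked to ATF4, 23 were abundant enough to test. At 2 h 6 rose and 0 fell, at 12 h 6 rose and 10 fell, and from 2 h to 12 h 2 rose and 14 fell. Gadd45a, a growth arrest gene, had a log2FC of 3.10 at 2 h and 4.45 at 12 h (edgeR adjusted p = 0.000201 and 3.16e-05), Atf3, a stress-induced factor, 2.41 and 1.45 (adjusted p = 0.000725 and 0.00118), and Nupr1, a stress-induced nuclear protein, 2.84 at 12 h (adjusted p = 0.000433). Of 9 folate and proline enzymes, 0 rose and 1 fell at 2 h, and 0 rose and 4 fell at 12 h. Shmt1, the cytosolic counterpart of Shmt2, had -0.47 at 2 h and -2.69 at 12 h (adjusted p = 0.0276 and 3.43e-05), where Shmt2 had 0.08. Oat, ornithine aminotransferase, had -0.64 at 12 h (adjusted p = 0.0257). These lists have few genes and were read by counts only, with no test of a list as a whole. Single genes of these lists were not read under the alternatives.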

How the data were processed

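RNA-seq was measured in 6 libraries of NMuMG cells, 2 for each of vehicle, 2 h and 12 h of TGFβ1, grouped by the submitters' labels. The authors deposited raw counts per gene with no normalization. Following the study's methods, reads had been filtered with FASTQ Toolkit and aligned to mm9 by subjunc of Rsubread, only uniquely mapped reads were kept, duplicates were removed, and reads were summed by strand over UCSC KnownGene exons, without miRNAs, so that genes with near-identical copies lose reads. The submitters' processing notes name SAMtools 0.1.19, edgeR 3.20.9, limma 3.34.9, Subread and featureCounts.

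From these counts, genes that reached 2 CPM in 2 or more libraries were tested in R 4.3.3 with edgeR 4.0.16 (quasi-likelihood test, TMM factors, 1 fit of 3 groups, two-sided, Benjamini-Hochberg adjustment within each contrast, threshold 0.05). Each SE was obtained from the absolute log2FC and the root of its F statistic. Alternatives were limma-voom (limma 3.58.1), DESeq2 1.42.0, DESeq2 size factors, library totals, no filter, a minimum of 10 counts in each library, a replicate block, only the 2 groups compared, and each library left out; whether a leave-out moved a value by over 1.5 times was added after seeing the data. The script for the fits was tested on simulated data. Library totals were 14705886 to 23786993 counts, and with 2 libraries per group the spread estimate is shared by the 3 groups. Both depth and the number of libraries bear on precision.

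The 39 genes, their roles, the other gene lists and the motif were chosen with earlier results of these data known. Levels in every library are given for each of the 39 genes with an adjusted p under 0.05 in any contrast and for Atf4, and up to 3 genes of each other list are named, those with an adjusted p under 0.05 and the largest absolute log2FC, apart from some that are not reported here. Promoter stretches are shown for up to 8 genes with the motif, those with the largest absolute log2FC first. Gene spans and exon lengths came from GENCODE on NCBIM37 and were matched by symbol. Promoter windows came from RefSeq on GRCm38.p6 and were matched by Entrez gene ID. Python 3.11.15, numpy 2.4.6, pandas 2.3.3 and matplotlib 3.10.9 were used.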

Additional observations from a re-analysis of the deposited data

Results flagged for a closer look

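For 10 of the 39 genes, the effect against vehicle differed between 12 h and 2 h of TGFβ by the edgeR test of 12 h against 2 h. The effect was lower at 12 h in 6 of them, by a log2FC of -2.70 for Psat1, -1.60 for Slc7a5, -1.20 for Phgdh, -1.17 for Slc1a5, -1.14 for Ddit3 and -1.04 for Atf5. It was higher at 12 h in the other 4, by 0.61 for Aldh18a1, 0.54 for Yars, 0.54 for Sesn2 and 0.52 for Tars. In Slc7a5, Phgdh and Atf5 the value against vehicle was positive at 2 h and negative at 12 h. In Tars and Aldh18a1 it was -0.01 and -0.03 at 2 h and positive at 12 h. It was negative at both times in Sesn2, Psat1, Slc1a5 and Ddit3, and positive at both in Yars. With 2 libraries in each group, no single library could be tested for standing apart from its group.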

How the results depend on the processing

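Of 168 counts under the alternatives, 41 moved by over 1.5 times, and of 392 alternative values of the called changes and of Atf4, 339 kept direction and side of the threshold, 42 kept the direction and lost the call and 11 reversed. Library totals shifted the median log2FC of all genes by -0.11 at 2 h and -0.13 at 12 h, so that small rises under TMM scaling are relative to it. The lowest count of any of the 39 genes was 61.

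Synthetases higher at 12 h numbered 3, but 1 with library totals, 5 with DESeq2, 8 with the replicate block, 8 with only the 2 groups compared, and 0 to 8 with a library left out (1 without replicate 1 of vehicle, 7 and 8 without replicates 1 and 2 of 2 h, 1 and 0 without those of 12 h). Those higher at 12 h than at 2 h numbered 2, but 4 with DESeq2 and 0 to 3 in leave-outs. Synthetases lower numbered 0, but 1 at 12 h with only the 2 groups compared, and 1 from 2 h to 12 h with DESeq2 and 0 to 1 in leave-outs. In the ATF4 group, those higher at 2 h numbered 1, but 4 with DESeq2 and 1 to 3 in leave-outs. Those lower at 2 h numbered 1, but 2 with DESeq2 size factors, library totals, limma-voom, DESeq2 and no filter, since Ddit3 passed there, and 1 to 2 in leave-outs. Those higher at 12 h numbered 3, but 1 with library totals and 1 to 3 in leave-outs, and those higher at 12 h than at 2 h numbered 2, but 1 with library totals, 1 with only the 2 groups compared and 0 to 2 in leave-outs. Apart from Ddit3, the cause was not tested. All reversed values were of Atf4, which was never called: at 2 h -0.00738 with DESeq2 size factors, -0.105 with library totals, -0.00740 with DESeq2, -5.33e-05 with only the 2 groups compared and -0.0441 to 0.0514 in leave-outs, at 12 h -0.0646 with library totals and -0.0321 to 0.132 in leave-outs, and from 2 h to 12 h -0.0311 to 0.133 in leave-outs.

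The labels do not say whether equal replicate numbers mark a shared culture or day. Deviations of same-numbered libraries from their group means had correlations across genes of 0.708 (vehicle with 2 h), 0.263 (vehicle with 12 h) and 0.392 (2 h with 12 h). With the replicate block, all genes gave 1813 calls up and 1409 down at 2 h, 3075 and 3052 at 12 h, and 2585 and 2788 for the later against the earlier time. Synthetases with the replicate block numbered 1 up at 2 h, 8 up and 1 down at 12 h, and 6 up and 2 down for 12 h against 2 h, and the ATF4 group 4 up and 2 down at 2 h. Beside the genes called without it, the block called, among others, at 12 h Cars, Farsa, Gars, Iars, Mars and Chac1 (up) and Vars and Asns (down). Among the synthetases it added Dars, Eprs, Gars and Rars (up) and Nars and Vars (down) for 12 h against 2 h.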
